A study of Mus musculus with 10 samples.

Results

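Bbx, Cers6, Trim66, Akna and Sfmbt2 are 5 genes that were higher after arsenite in cultured mouse cortical neurons and are not members of the classical stress pathways. They were chosen by name from earlier results of the same arrays, and each was read from the brightest probe set that the platform annotation ties to that gene alone. All 5 had exactly 1 such probe set, among 22180 genes with 1 symbol. Bbx encodes an HMG-box DNA-binding protein, Cers6 a ceramide synthase of the endoplasmic reticulum, Trim66 a tripartite-motif protein of the TIF1 family of transcriptional corepressors, Akna an AT-hook protein that also sits at the centrosome, and Sfmbt2 a Polycomb group protein with MBT repeats that carries a large cluster of microRNA genes inside it. None of the 5 was on the lists of integrated stress response genes, NRF2 targets and heat shock proteins used here.

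Cortical cells of embryonic day 14.5 to 15.5 mice were grown to day 7 in vitro and then received 5 µM sodium arsenite or vehicle for 12 hours. ATF4-deficient neurons gave 2 arsenite and 2 vehicle arrays, and wildtype neurons gave 4 arsenite and 2 vehicle arrays. ATF4 is the main transcriptional effector of the integrated stress response. The labels name neither the Atf4 allele nor the strain, and they call the samples biological replicates without giving their source. The p-values therefore cover array-to-array spread, which may be technical.

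Arsenite reacts with protein thiols, and cells answer it through several known routes. The integrated stress response slows protein synthesis while raising the translation of ATF4, which then switches on genes of amino acid supply. In parallel NRF2 switches on antioxidant genes such as Hmox1, which encodes haem oxygenase, and the heat shock factors switch on chaperones. The 5 genes described here act elsewhere, in chromatin, sphingolipid synthesis and the cytoskeleton.

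All values are log2 expression values that the authors normalized by robust multiarray average (RMA), so a difference of 1 stands for a doubling. Array medians lay between 7.00 and 7.09. The dim level used here is 6.63, the 90th percentile of olfactory and vomeronasal receptor genes. Atf4 checked the genotype labels: it averaged 7.62 ± 0.11 (SD, n = 2) in ATF4-deficient arsenite arrays, against 9.69 ± 0.21 (SD, n = 4) in wildtype arsenite arrays. The array farthest from the rest was ATF4-deficient arsenite replicate 2, with a first principal component score of 29.4, while the scores of the remaining arrays ran from -18.2 to 8.70. Neuron markers averaged between 10.4 and 10.6 on every array, with all 11 above the dim level.

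Promoter windows from RefSeq (build GRCm38.p6), reaching from 250 bases before a transcription start to 50 bases after it, were present for 4 of the 5 genes, in 6 windows. They are shown because the genes were chosen for a shared rise under a stressor whose known DNA elements can be searched for. The windows printed are chr7:109508085-109508384 on the minus strand for Trim66, chr4:63403396-63403695 on the minus strand for Akna, chr2:68861191-68861490 on the plus strand for Cers6 and chr2:10370201-10370500 on the plus strand for Sfmbt2. Capitals mark the 50 bases from the start onward.
Trim66: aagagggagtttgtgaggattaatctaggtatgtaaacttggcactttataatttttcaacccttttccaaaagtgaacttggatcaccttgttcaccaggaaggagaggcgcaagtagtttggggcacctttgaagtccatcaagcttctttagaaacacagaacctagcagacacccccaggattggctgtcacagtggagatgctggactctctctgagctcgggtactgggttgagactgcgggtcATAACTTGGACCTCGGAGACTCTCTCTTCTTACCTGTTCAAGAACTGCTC
Akna: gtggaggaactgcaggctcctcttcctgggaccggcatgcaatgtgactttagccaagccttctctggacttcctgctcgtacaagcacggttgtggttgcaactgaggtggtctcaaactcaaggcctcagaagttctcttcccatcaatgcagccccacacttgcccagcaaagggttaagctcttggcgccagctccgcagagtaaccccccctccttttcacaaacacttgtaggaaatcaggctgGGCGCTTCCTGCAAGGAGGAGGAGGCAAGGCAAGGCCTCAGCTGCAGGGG
Cers6: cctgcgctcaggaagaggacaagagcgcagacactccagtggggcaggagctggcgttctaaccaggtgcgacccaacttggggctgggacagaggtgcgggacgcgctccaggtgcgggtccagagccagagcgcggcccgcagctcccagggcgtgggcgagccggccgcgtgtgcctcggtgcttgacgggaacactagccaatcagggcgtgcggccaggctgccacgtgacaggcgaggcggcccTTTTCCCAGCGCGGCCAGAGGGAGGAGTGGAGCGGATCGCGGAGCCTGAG
Sfmbt2: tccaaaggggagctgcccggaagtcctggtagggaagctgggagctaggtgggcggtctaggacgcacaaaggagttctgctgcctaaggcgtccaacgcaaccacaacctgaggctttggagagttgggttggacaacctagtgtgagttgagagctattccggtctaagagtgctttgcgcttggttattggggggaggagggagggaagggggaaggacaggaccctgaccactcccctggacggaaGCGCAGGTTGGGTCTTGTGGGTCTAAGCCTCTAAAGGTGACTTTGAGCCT

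In all 6 windows, on both strands, 4 motifs were searched. The cyclic AMP response element TGACGTCA, the composite element core of ATF4 and C/EBP proteins TGATGNAA, the antioxidant response element core TGACNNNGC and the heat shock element core GAANNTTC had 0 matches. The first and the third of these share their opening TGAC. Of all 32851 windows in the table, 1.79%, 3.97%, 12.4% and 7.86% held a match in that order. The GC content of the 6 windows was between 47.0% for Trim66 and 70.0% for Cers6, against a median of 52.7% over all windows. The search says only that these letters are not in these windows.

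The 5 genes fell into 2 patterns. Bbx, Cers6 and Sfmbt2 were higher with arsenite in ATF4-deficient and in wildtype neurons alike, and Trim66 and Akna were higher in wildtype neurons while their ATF4-deficient arsenite and vehicle arrays overlapped. These rises are what the genes were chosen for, so they are given as a description with no test.

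Bbx had 7.88 and 7.92 in ATF4-deficient arsenite arrays, against 7.04 and 6.67 in ATF4-deficient vehicle arrays. In wildtype it had 7.59, 7.73, 7.50 and 7.47 in arsenite arrays, against 6.89 and 6.97 in vehicle arrays. Arsenite arrays lay above vehicle arrays in both genotypes, and the ATF4-deficient arsenite arrays were the highest of all. The change was 1.05 log2 (SE 0.13) in ATF4-deficient neurons, which is 2.08-fold, and 0.64 log2 (SE 0.11), or 1.56-fold, in wildtype neurons. Without ATF4-deficient vehicle replicates 1 and 2 the first of these was 1.24 and 0.87.

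Sfmbt2 had 7.68 and 7.50 in ATF4-deficient arsenite arrays, against 6.52 and 6.51 in ATF4-deficient vehicle arrays. In wildtype it had 7.27, 7.16, 7.07 and 6.82 in arsenite arrays, against 6.56 and 6.58 in vehicle arrays. All 4 vehicle arrays lay below the dim level, where signal cannot be separated from background, so the changes below are measured against background signal and may understate the change in RNA. The change was 1.08 log2 (SE 0.14) in ATF4-deficient neurons, or 2.11-fold, and 0.51 log2 (SE 0.12), or 1.42-fold, in wildtype neurons.

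Cers6, whose enzyme joins a fatty acyl chain to a sphingoid base to form ceramide, lay well above the dim level on every array. It had 11.35 and 11.33 in ATF4-deficient arsenite arrays, against 10.87 and 10.82 in ATF4-deficient vehicle arrays. Wildtype arsenite arrays had 11.22, 11.37, 11.16 and 11.24, against 10.61 and 10.63 in wildtype vehicle arrays. Arsenite arrays again lay above vehicle arrays in both genotypes. The change was 0.50 log2 (SE 0.10) in ATF4-deficient neurons and 0.63 log2 (SE 0.08) in wildtype neurons, and the replicates were the closest of the 3 genes with this pattern, at a residual SD of 0.0645. The transcript Gm52515 is annotated as overlapping Cers6, and its part in the signal was not tested.

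Trim66, whose relatives in the TIF1 family recruit heterochromatin proteins, had 7.51 and 7.16 in ATF4-deficient arsenite arrays, against 7.39 and 7.17 in ATF4-deficient vehicle arrays. In wildtype it had 8.18, 8.75, 8.28 and 8.21 in arsenite arrays, against 7.22 and 7.60 in vehicle arrays. Only the wildtype arsenite arrays stood apart, and the other 3 groups overlapped. The change was 0.05 log2 (SE 0.20, 95% interval -0.39 to 0.50) in ATF4-deficient neurons and 0.94 log2 (SE 0.18), or 1.92-fold, in wildtype neurons. The interval in ATF4-deficient neurons holds changes in either direction, and the change was -0.12 without arsenite replicate 1 and 0.23 without arsenite replicate 2.

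Akna, first described as a regulator of the CD40 receptor and its ligand in lymphocytes, had 7.03 and 7.09 in ATF4-deficient arsenite arrays, against 7.12 and 6.98 in ATF4-deficient vehicle arrays. In wildtype it had 7.70, 7.69, 7.60 and 7.74 in arsenite arrays, against 7.19 and 7.24 in vehicle arrays. The change was 0.01 log2 (SE 0.10, 95% interval -0.20 to 0.22) in ATF4-deficient neurons and 0.47 log2 (SE 0.08), or 1.38-fold, in wildtype neurons. The change in ATF4-deficient neurons was 0.08 without vehicle replicate 1 and -0.06 without vehicle replicate 2. As for Trim66, the wildtype arsenite arrays stood apart from all other arrays. The transcripts Aknaos and Gm52742 are annotated as overlapping Akna and have no probe set of their own under 1 symbol, so their part in the signal was not tested.

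**Figure D1:**
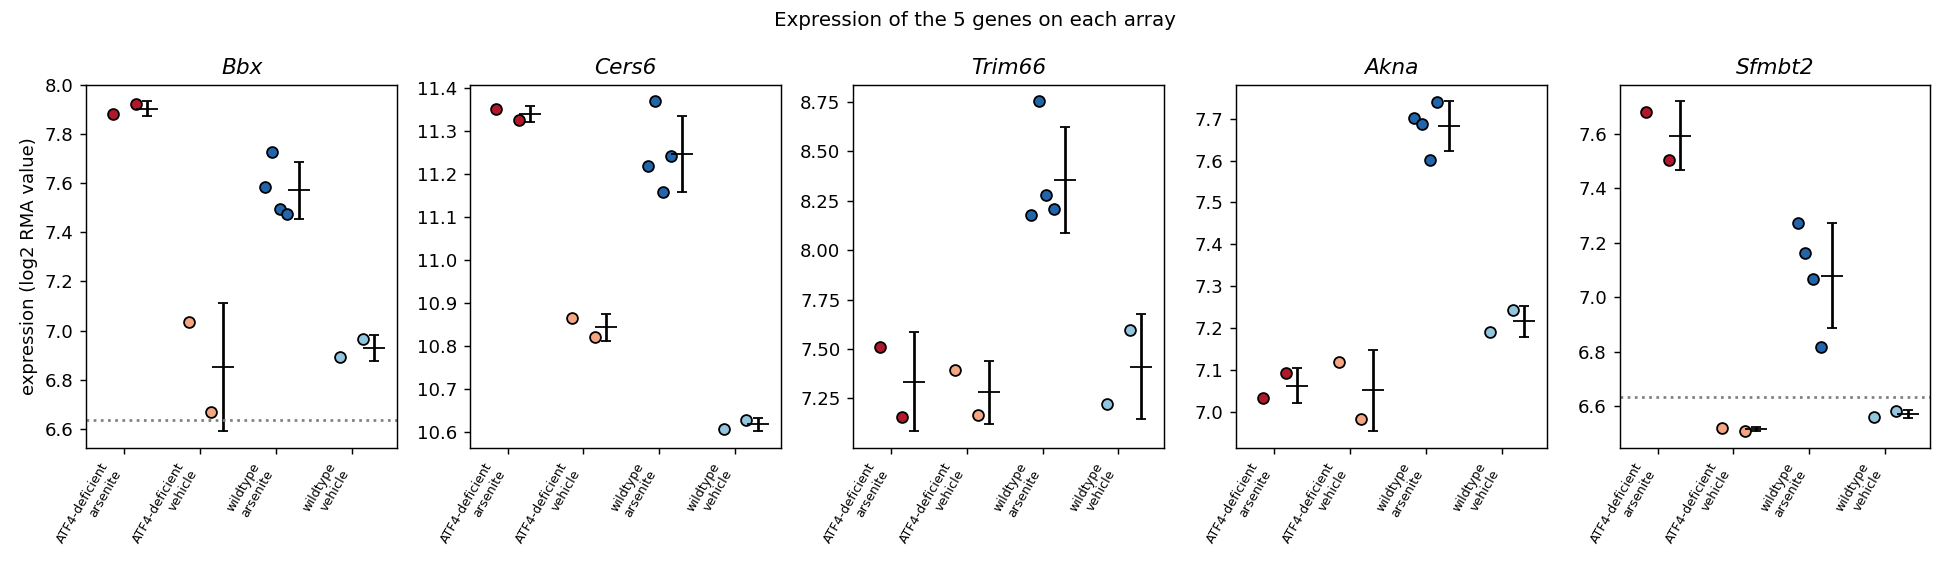
Log2 RMA expression of the 5 genes (vertical axes, a scale per gene) on each of the 10 arrays, by group. Points are arrays, and the bar beside them is the mean with the SD. The dotted line in the panels of Bbx and Sfmbt2 is the dim level of 6.63. Trim66 and Akna are high in the 4 wildtype arsenite arrays alone, while Bbx, Cers6 and Sfmbt2 are high in both arsenite groups.

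Arsenite arrays lay above vehicle arrays without overlap for 3 of the 5 genes in ATF4-deficient neurons, where 18.1% of all genes did so, and for 5 of the 5 in wildtype neurons, where 7.86% of all genes did so. This makes 3 of the 5 in both genotypes, where 3.64% of all genes did so, and 0 of the 5 lay below without overlap in ATF4-deficient neurons, where 20.7% of all genes did. The genes were chosen on these contrasts, and nothing is read from the counts.

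Whether the arsenite change differed between genotypes was asked with the interaction term, the ATF4-deficient change minus the wildtype change, in a limma model fitted to all 22180 genes. The difference was -0.89 log2 (SE 0.27, 95% interval -1.48 to -0.30) for Trim66 and -0.45 (SE 0.13, -0.73 to -0.18) for Akna. It was 0.57 (SE 0.18, 0.17 to 0.96) for Sfmbt2, with both vehicle groups below the dim level, and 0.41 (SE 0.17, 0.03 to 0.79) for Bbx, which was 0.23 without ATF4-deficient vehicle replicate 2. None passed after adjustment over all genes, with limma adjusted p values of 0.753 for Trim66, 0.744 for Akna, 0.753 for Sfmbt2 and 0.828 for Bbx. For Cers6 the difference was -0.13 (SE 0.13, -0.41 to 0.15, adjusted p = 0.902), an interval that holds 0 and differences of up to 0.41 in size.

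The percentage of genes called for the interaction in limma was 0, or 0 of 22180, while 1330 genes had an unadjusted p under 0.05, which is 6% of those tested. Of the 5 genes, 4 were among those 1330. The arrays are the ones on which the genes were chosen, so this is no independent evidence of a difference. Under every alternative run for the interaction, each array left out in turn included, Trim66, Akna and Cers6 kept a negative difference and Bbx and Sfmbt2 a positive one.

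**Figure D2:**
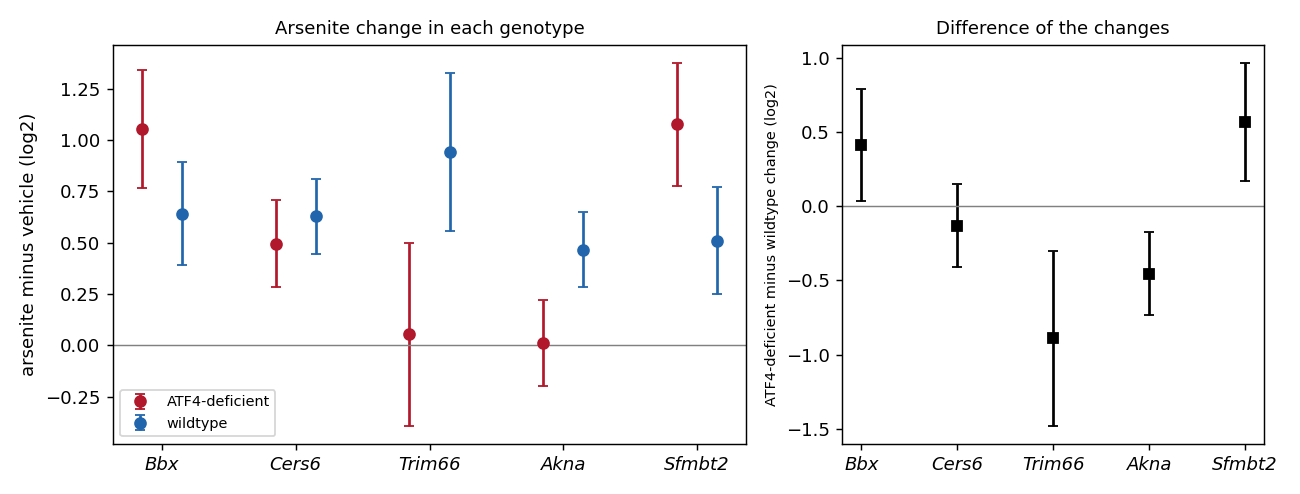
Left, arsenite minus vehicle (log2) for each gene in ATF4-deficient and wildtype neurons. Right, the ATF4-deficient change minus the wildtype change (log2). Bars are 95% intervals from the limma model, not adjusted for the number of genes. The difference lies below 0 for Trim66 and Akna, above 0 for Bbx and Sfmbt2, and its interval holds 0 for Cers6.

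Under arsenite, Akna was lower in ATF4-deficient than in wildtype neurons by -0.62 log2 (SE 0.08, limma adjusted p = 0.0104), and Trim66 by -1.02 log2 (SE 0.18, limma adjusted p = 0.0414). In both genes every ATF4-deficient arsenite array lay below every wildtype arsenite array, as in 7.95% of all genes. Among all genes 0.343% were called in this contrast, 0.271% lower and 0.0721% higher. The wildtype arsenite arrays are shared with the rise that chose these genes, so the contrast is not independent of the choice. The Akna call was lost without ATF4-deficient arsenite replicate 1 (adjusted p = 0.0854) or 2 (0.109), and the Trim66 call without any 1 of the 10 arrays (adjusted p = 0.0529 to 0.283). The Trim66 call was also lost with array weights (0.104), over all probe sets (0.160) and with 2 groups in the fit (0.0994). With the replicate number as a block both calls were lost.

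Bbx and Sfmbt2 lay the other way under arsenite. Their ATF4-deficient arsenite arrays were above all wildtype arsenite arrays, as in 10.6% of all genes, by 0.33 log2 on average for Bbx (SE 0.11, limma adjusted p = 0.285) and 0.51 for Sfmbt2 (SE 0.12, limma adjusted p = 0.120). Neither passed. Cers6 differed by 0.09 (SE 0.08, 95% interval -0.09 to 0.28), and its arrays overlapped.

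Under vehicle none of the 5 genes passed for genotype in limma, where 0.433% of all genes did, and 1 of the 5, Cers6, had an unadjusted p under 0.05, where 10.9% of all genes did. Cers6 was 0.23 log2 higher in ATF4-deficient neurons (SE 0.10, adjusted p = 0.422), and both ATF4-deficient vehicle arrays lay above both wildtype vehicle arrays, as in 21.2% of all genes. For Akna and Sfmbt2 both lay below, as in 21.4% of all genes. The differences of the other 4 were between -0.17 for Akna and -0.05 for Sfmbt2. The order of group means was ATF4-deficient arsenite, wildtype arsenite and then the vehicle groups for Bbx, Cers6 and Sfmbt2, with the vehicle groups overlapping for Bbx. For Trim66 and Akna the wildtype arsenite group came first, and for Trim66 the other 3 groups did not differ beyond their spread.

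Markers of neuron types and of other cells moved between these groups as well. The mean over 8 excitatory neuron markers was 9.43 to 9.44 in ATF4-deficient arsenite and 9.41 to 9.46 in ATF4-deficient vehicle arrays. It was 9.17 to 9.36 in wildtype arsenite and 9.47 to 9.49 in wildtype vehicle arrays. Over 8 inhibitory neuron markers the mean was 8.80 to 9.28, 9.06 to 9.42, 9.24 to 9.52 and 9.35 to 9.59 in the same order. These means are a description with no test. The mean over 13 astrocyte markers, of which 11 lay above the dim level, was 7.54 to 7.93 in ATF4-deficient arsenite arrays and 7.59 to 8.01 in ATF4-deficient vehicle arrays. It was 8.01 to 8.53 in wildtype arsenite arrays and 8.57 to 8.76 in wildtype vehicle arrays. The astrocyte mean was thus lower with arsenite in wildtype neurons. It was also lower in ATF4-deficient than in wildtype neurons, under vehicle and under arsenite. Gfap was called lower in ATF4-deficient neurons under vehicle (-0.69, SE 0.13, limma adjusted p = 0.0473), and Sox9 under arsenite (-0.79, SE 0.13, limma adjusted p = 0.0372). Microglia and immune cell markers bear on Akna, since immune cells express it. They averaged 6.66 to 6.87, 6.86 to 6.95, 6.67 to 6.76 and 6.76 to 6.80 in the order of groups given for the astrocyte mean, with 6 of 11 above the dim level. The mean over 8 oligodendrocyte lineage markers, all above the dim level, was 7.02 to 7.19, 7.28 to 7.32, 7.31 to 7.53 and 7.61 to 7.75 in the same order, lower with arsenite in both genotypes. Of these, Pdgfra fell with arsenite in wildtype neurons (-0.76, SE 0.14, limma adjusted p = 0.0464), and Olig2 was lower in ATF4-deficient neurons under arsenite (-1.03, SE 0.18, limma adjusted p = 0.0473). The mean over 10 vascular and fibroblast markers, 5 above the dim level, was 6.76 to 6.83, 6.92 to 6.98, 6.72 to 7.05 and 6.74 to 6.88 in the same order. Of these, the pericyte marker Rgs5 fell with arsenite in ATF4-deficient neurons (-1.03, SE 0.21, limma adjusted p = 0.0450), where the list's median was -0.09. Under vehicle Rgs5 was also called higher in ATF4-deficient than in wildtype neurons (1.29, SE 0.21, limma adjusted p = 0.0344), where the list's median was -0.02. The other markers of the list thus did not share the changes of Rgs5. Only the ATF4-deficient vehicle arrays of Rgs5 lay above the dim level, at 7.32 and 7.85, so the fall ended in background signal. No marker is listed at 0, since RMA gives every probe set a value. The part of cell makeup in the 5 genes' values was not tested, and fewer cells of a type and less RNA per cell cannot be told apart in these bulk samples.

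The known stress genes set beside them were spread over the same plane. Hmox1 differed widely between its ATF4-deficient vehicle arrays, at 8.05 and 6.67. It changed by 2.18 log2 (SE 0.36, 1.49 to 2.86 with 1 array left out) in ATF4-deficient neurons and by 3.25 (SE 0.31) in wildtype neurons. Ddit3, which encodes CHOP, a transcription factor downstream of ATF4, changed by 0.25 (SE 0.15) and 1.06 (SE 0.13), and Sesn2, a stress-induced brake on mTORC1, by -0.07 (SE 0.28) and 1.34 (SE 0.24) in the same order. Trim66 and Akna lay on the same side of the line of equal change as these 3 stress genes, with a larger change in wildtype. Bbx and Sfmbt2 lay on the opposite side, as did other stress genes such as Hspa1a (1.06 in ATF4-deficient and 0.45 in wildtype neurons). The difference was positive for 1 of 26 integrated stress response genes, 11 of 19 NRF2 targets and 12 of 15 heat shock proteins. Over all genes it was positive for 12099 of 22180. Cers6 lay near the line, and the interval of its difference (-0.41 to 0.15) holds 0. The difference between genotypes passed for none of the 3 stress genes (limma adjusted p = 0.828, 0.701 and 0.724 for Hmox1, Ddit3 and Sesn2).

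**Figure D3:**
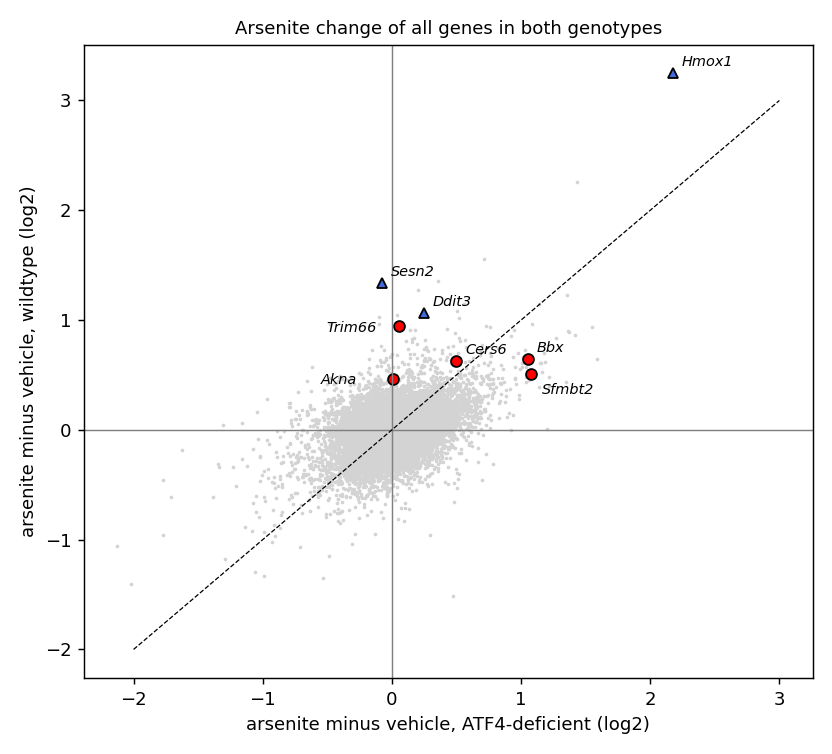
Arsenite minus vehicle (log2) in ATF4-deficient neurons (horizontal) against wildtype neurons (vertical) for all 22180 genes (grey), the 5 genes (red circles) and 3 known stress genes (blue triangles). The dashed line marks equal change. Bbx and Sfmbt2 lie to the right of the line, and Trim66 and Akna lie above it, close to 0 on the horizontal axis.

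Genes with related roles were read from lists that do not hold the 5 genes themselves. Of 32 measured genes of sphingolipid metabolism, the pathway that makes and breaks down ceramide, 0 passed in ATF4-deficient neurons and 0 in wildtype neurons in limma, with 7 and 3 at an unadjusted p under 0.05. The percentage of all genes called was 1.15% and 0.482%, and at an unadjusted p under 0.05 it was 12% and 10.9%. The list's median change was 0.03 and -0.00 log2, against -0.01 and -0.02 over all genes. The other measured ceramide synthases, Cers2 to Cers5, changed by between -0.03 (Cers2) and 0.31 (Cers4) in ATF4-deficient neurons and between -0.09 (Cers2) and 0.13 (Cers5) in wildtype neurons. Cers6, chosen for its rise, had 0.50 and 0.63, and the highest of the 32 were the ceramidase gene Asah1 (0.42) in ATF4-deficient neurons and Ormdl2 (0.25), a regulator of sphingolipid synthesis, in wildtype neurons.

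Of 10 measured TIF1 family and heterochromatin genes, 0 passed in either genotype, with 2 in ATF4-deficient and 1 in wildtype neurons at an unadjusted p under 0.05. The 3 relatives of Trim66, the corepressor genes Trim24, Trim28 and Trim33, changed by 0.31, -0.03 and 0.14 in ATF4-deficient neurons and by 0.09, -0.22 and 0.11 in wildtype neurons. Of 20 genes of centrosomal microtubule organisation, set beside Akna, 0 passed in either genotype, with 1 in ATF4-deficient and 2 in wildtype neurons at an unadjusted p under 0.05 and medians of 0.05 and -0.04. Cd40 and its ligand gene Cd40lg changed by -0.03 and -0.05 in ATF4-deficient neurons and by 0.12 and 0.16 in wildtype neurons, and neither passed. Over all genes, 1.15% passed in ATF4-deficient and 0.482% in wildtype neurons, and 12% and 10.9% had an unadjusted p under 0.05. Nothing is read from the counts of these lists.

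Of 31 Polycomb and MBT protein genes, 1 rose in ATF4-deficient neurons and 0 passed in wildtype neurons, with 4 at an unadjusted p under 0.05 in each genotype. The 1 was L3mbtl3, another MBT repeat protein (0.79 log2, SE 0.13, limma adjusted p = 0.0195), with 9.61 and 9.85 in ATF4-deficient arsenite arrays against 8.93 and 8.95 in ATF4-deficient vehicle arrays. It no longer passed without ATF4-deficient vehicle replicate 1 or 2 or arsenite replicate 2 (adjusted p = 0.110, 0.113 and 0.139). Sfmbt1, the paralogue of Sfmbt2, changed by 0.27 in ATF4-deficient and 0.38 in wildtype neurons and did not pass. Of 22 HMG-box genes, 1 rose in ATF4-deficient neurons and 0 passed in wildtype neurons, with 4 and 3 at an unadjusted p under 0.05. The 1 was Ubtf, a factor of ribosomal RNA transcription (0.69, SE 0.14, limma adjusted p = 0.0441), which still passed without ATF4-deficient arsenite replicate 1 but not when any other array was left out (adjusted p up to 0.291), with a change of 0.46 without ATF4-deficient arsenite replicate 2. Hbp1, an HMG-box repressor related to Bbx, changed by 0.37 and 0.08 and did not pass. Over all genes, 0.631% rose in ATF4-deficient and 0.23% in wildtype neurons, and 12% and 10.9% had an unadjusted p under 0.05. Nothing is read from the counts of these lists.

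**Figure D4:**
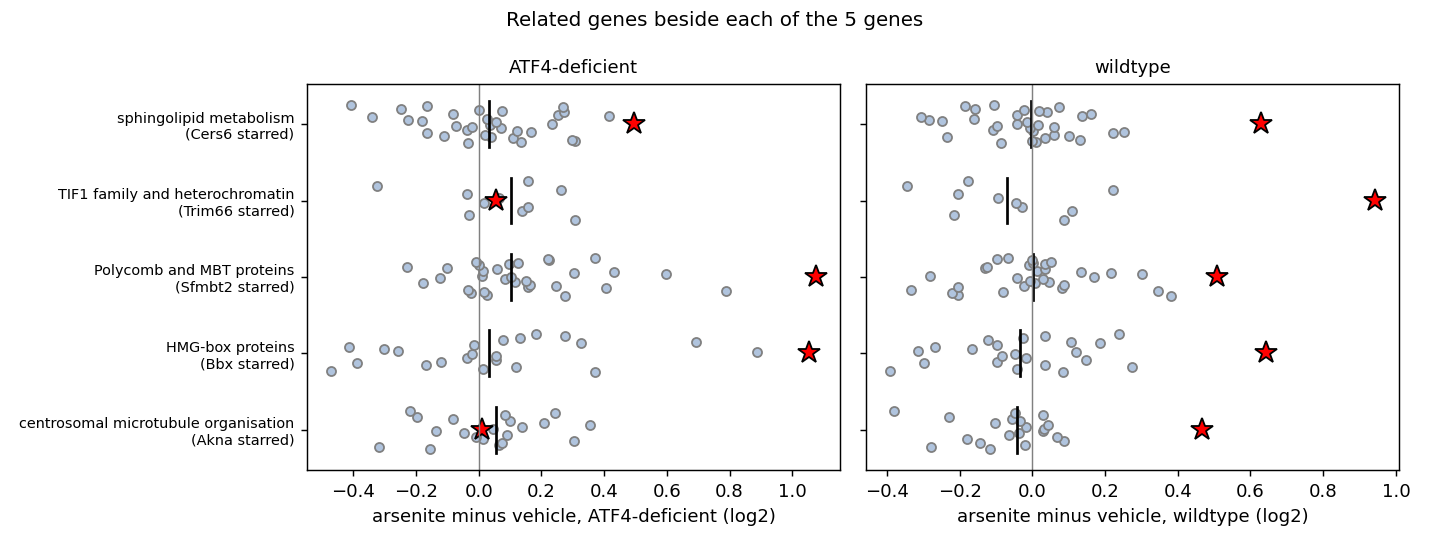
Arsenite minus vehicle (log2) in ATF4-deficient (left) and wildtype neurons (right) for the genes of 5 lists of related function (circles), with the list's median (black bar) and the gene described here (red star). The starred genes were chosen for their rise and the circles were not, so a star beyond its circles shows only that choice. In ATF4-deficient neurons the stars of Trim66 and Akna lie among the circles.

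Sfmbt2 carries 72 annotated microRNA genes inside it, and 22 of them had a probe set of their own under 1 symbol. The array labels long RNA, so these probe sets may read precursor or host transcript rather than mature microRNA. Sfmbt2 was chosen for its rise, so a rise of probe sets inside it is no independent evidence of that rise. Of the 22, 14 averaged above the dim level. Of the 22, 3 rose in ATF4-deficient neurons and 2 in wildtype neurons, where 0.631% and 0.23% of all genes rose. In neither genotype did any fall, where 0.523% and 0.252% of all genes fell.

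Mir669j had 8.48 and 8.39 in ATF4-deficient arsenite arrays, against 6.93 and 7.20 in ATF4-deficient vehicle arrays. In wildtype it had 8.22, 7.85, 8.05 and 7.84 in arsenite arrays, against 6.92 and 7.27 in vehicle arrays. It rose by 1.37 log2 (SE 0.16, limma adjusted p = 0.00348) in ATF4-deficient neurons and by 0.89 (SE 0.14, limma adjusted p = 0.0286) in wildtype neurons. As for the host gene, arsenite arrays lay above vehicle arrays in both genotypes and the ATF4-deficient arsenite arrays were the highest.

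Mir669k rose by 1.36 log2 (SE 0.18, limma adjusted p = 0.00758) in ATF4-deficient neurons and by 0.90 (SE 0.16, limma adjusted p = 0.0394) in wildtype neurons. Mir669i rose by 1.15 (SE 0.15, limma adjusted p = 0.00763) in ATF4-deficient neurons, and its change of 0.60 in wildtype neurons did not pass (SE 0.13, limma adjusted p = 0.0889). Its vehicle arrays lay below the dim level in both genotypes, at 5.65 and 5.89 in ATF4-deficient and 5.85 and 6.28 in wildtype neurons, so its changes are measured against background signal. Their level followed that of Sfmbt2 across the 10 arrays, with a Pearson correlation of 0.949 for the Mir669j probe set, given as a description of arrays that share their groups.

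Without ATF4-deficient vehicle replicate 1 the calls of Mir669k and Mir669i in ATF4-deficient neurons were lost (adjusted p = 0.0654 and 0.0655), while Mir669j still passed whichever of the 10 arrays was left out. Averaged over its probe sets, Mir669i changed by 0.50 in ATF4-deficient neurons (adjusted p = 0.105). With 2 groups in the fit none of the 3 passed in ATF4-deficient neurons (adjusted p = 0.210 for each). In wildtype neurons both calls were lost over all probe sets (adjusted p = 0.111 for Mir669j and 0.125 for Mir669k) and with 2 groups in the fit (0.0642 and 0.0884). There the Mir669j call was lost without vehicle replicate 1 (adjusted p = 0.297) or 2 (0.0516) or arsenite replicate 2 (0.0561) or 3 (0.0775), and the Mir669k call was kept without vehicle replicate 2 alone. The other 19 microRNA genes did not pass by their brightest probe set, although 2 dimmer probe sets of Mir669g, with the same values, had a change of 0.97 in ATF4-deficient neurons (limma adjusted p = 0.0383 over all probe sets). Among the 19 were Mir466g, with changes of -0.80 in ATF4-deficient and 0.25 in wildtype neurons, and Mir466h, with 0.11 and -0.07. Family members are close copies of each other, so probe sets may read more than 1 of them, and a signal cannot be assigned to 1 gene of the cluster. The median change over the 22 was -0.03 in ATF4-deficient and 0.25 in wildtype neurons, against -0.01 and -0.02 over all genes.

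**Figure D5:**
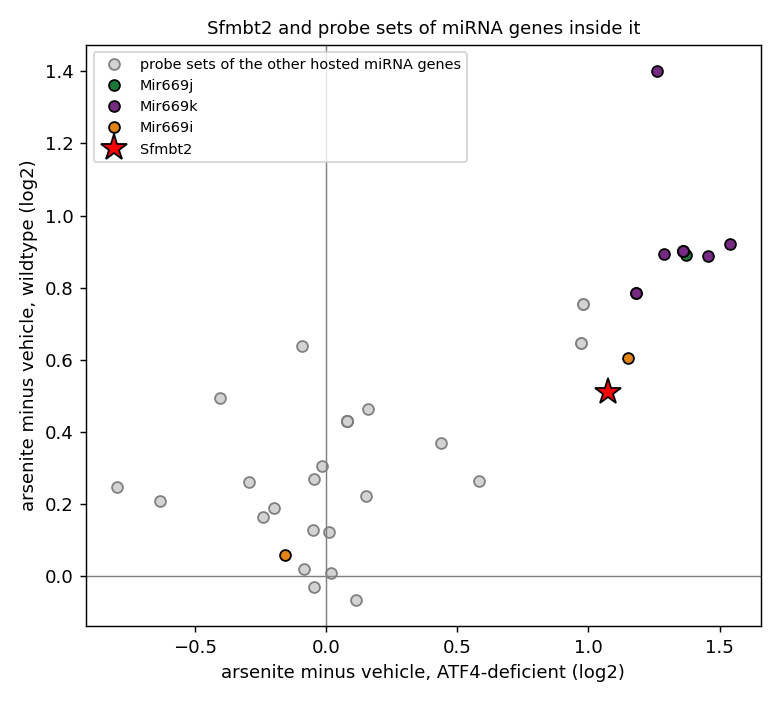
Arsenite minus vehicle (log2) in ATF4-deficient (horizontal) against wildtype neurons (vertical) for Sfmbt2 (star) and for each probe set with 1 symbol of the 22 microRNA genes inside it (circles). Probe sets of Mir669j and Mir669k, 1 of the 2 of Mir669i and 4 of the 5 of Mir669g (grey, 2 points of 2 each) lie beside or beyond Sfmbt2, and the others lie between -0.80 and 0.58 on the horizontal axis.

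For each of the 5 genes, the 3 genes whose values followed it most closely over the 10 arrays were taken by Pearson correlation, as a description of arrays that share their groups. For Bbx these were Elf2, an ETS transcription factor (r = 0.973), Lamp2, a lysosomal membrane protein (0.969), and Cep83os (0.969). For Cers6 they were the constitutive chaperone gene Hspa8 (0.972), Slx4ip (0.969) and the choline transporter-like gene Slc44a5 (0.966). For Sfmbt2 they were Mttp, which loads lipid onto lipoproteins (0.978), Wdhd1, a DNA replication protein (0.971), and Zfp790 (0.970).

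Trim66 was followed by the collagen receptor gene Ddr2 (0.970), Cyb5r1 (0.969) and the serine synthesis enzyme gene Psat1 (0.968). Akna was followed by the transcription factor gene Atf5 (0.969), the mitochondrial enzyme gene Pck2 (0.965) and the cationic amino acid transporter gene Slc7a1 (0.963). Psat1, Atf5 and Slc7a1 are on the list of integrated stress response genes used here, and Hspa8, named for Cers6, is on that of heat shock proteins. Psat1, for example, had 8.07 and 7.90 in ATF4-deficient arsenite arrays, against 8.11 and 7.44 in ATF4-deficient vehicle arrays, and 9.25, 9.97, 9.75 and 9.58 in wildtype arsenite arrays, against 7.99 and 8.73 in wildtype vehicle arrays. By Spearman correlation 2 of the 3 genes were the same for Bbx and for Trim66, and 0 of the 3 for Cers6, Akna and Sfmbt2.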

How the data were processed

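Total RNA was labelled with the Affymetrix WT PLUS kit, per the labels' protocols. The authors deposited log2 expression values, normalized by RMA in Partek 6.6 per the submitters' processing notes, which takes out any shift common to most probe sets. The number of arrays limits the precision, and the files hold no detection calls. Of 41345 probe sets, 23521 had 1 gene symbol, 1814 several and 16010 no entry. Of the first, 23328 matched the GRCm38.p6 gene table by Entrez identifier. The brightest probe set stood for a gene, and no gene was removed for low signal.

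The 4 groups came from sample titles. A single limma model (limma 3.58.1, R 4.3.3) estimating the 4 group means was fitted to 22180 genes on 10 arrays with 6 residual degrees of freedom (prior degrees of freedom 5.08), and p-values were adjusted by Benjamini-Hochberg over all genes at a threshold of 0.05. The model was also run on simulated data with independent noise and changes added to wildtype arsenite arrays alone. That run does not cover correlated replicates or changes in the other groups. The genes, the lists and the naming rule (the 5 genes, their paralogues, called list members, 3 genes of like pattern each, Hmox1, Ddit3, Sesn2 and Atf4) were chosen with earlier results of these data known. The microRNA genes inside Sfmbt2 and the neighbouring genes were added after values were seen. Alternatives were a filter on dim genes, averaged probe sets, equal medians, array weights, a variance trend, all probe sets, the replicate number as a block, 2-group fits and leaving out each array.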

Additional observations from a re-analysis of the deposited data

How the results depend on the processing

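The number of genes called depended on the processing. Of 180 recomputed arsenite changes of the 5 genes, 176 moved by less than the spread between replicates. The other 4 were Bbx and Akna in ATF4-deficient neurons without either vehicle array. Many of the 180 could not move, so the 176 are no measure of stability. Each gene had 1 probe set, so averaged probe sets, all probe sets, the filter, the variance trend and 2-group fits left its group means unchanged. Leaving out an array of the other genotype did so too. For arsenite in wildtype neurons, 107 genes were called, against 162 with the filter on dim genes, 186 with array weights, 20 over all probe sets, 17 with the replicate block and 11 with 2 groups in the fit. For arsenite in ATF4-deficient neurons the count was 256, against 135 with array weights, 95 over all probe sets and 0 with 2 groups in the fit (2025 at an unadjusted p under 0.05). For genotype under vehicle it was 96, against 193 with the filter, 228 with weights, 1 over all probe sets, 165 with the replicate block and 0 with 2 groups (2619 at an unadjusted p under 0.05). For genotype under arsenite it was 76, against 40 with weights, 34 over all probe sets, 4 with the replicate block and 41 with 2 groups. Leaving out 1 array gave 0 to 75, 50 to 200, 0 to 99 and 1 to 64 in that order. The interaction had 0 calls in limma throughout (904 to 2245 at an unadjusted p under 0.05). Apart from the number of genes or arrays entering a fit, the cause was not tested.

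Same-numbered arrays correlated at -0.0555 to 0.403 in their deviations from group means, with 10 of 12 pairs positive but not all over 0.1, so arrays were not treated as paired and pairing is not excluded. With the replicate block the genotype difference under arsenite had an adjusted p of 0.0798 for Akna and 0.114 for Trim66, and the wildtype arsenite changes of Mir669j and Mir669k one of 0.0930 each. Differences not past the threshold changed sign for Trim66 under vehicle when 1 array was left out (-0.318 to 0.0579 log2), for Bbx under vehicle (-0.263 to 0.11), and with arsenite in ATF4-deficient neurons for Sesn2 (-0.321 to 0.17), Trim66 (-0.12 to 0.23) and Akna (-0.06 to 0.08). The exact permutation test of single members was not run, since no measure of theirs was independent of their choice.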

Other observations

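Of the 10 protein-coding genes nearest to the 5 on their chromosomes with a probe set under 1 symbol, 1 on each side, 7 averaged below the dim level, where a change may not be seen, Rpl27a, Orm2 and Itih5 among them. None of the 10 passed in limma for arsenite in either genotype, where 1.15% of all genes passed in ATF4-deficient and 0.482% in wildtype neurons. With shares this small, nothing is read from that count. The changes in ATF4-deficient neurons were between -0.29 (Cd47, next to Bbx) and 0.39 (Rpl27a, next to Trim66). In wildtype neurons they were between -0.20 (Rpl27a) and 0.40 (Orm2, next to Akna). On either side of Sfmbt2, Itih5 changed by -0.08 in ATF4-deficient and 0.06 in wildtype neurons, and Prkcq by 0.17 and 0.08.

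Mir669k was read by 9 probe sets with 6 distinct sets of values, the others being exact repeats. All 9 were higher with arsenite, by 1.18 to 1.54 log2 in ATF4-deficient neurons and by 0.79 to 1.40 in wildtype neurons. Mir669g was read by 5 probe sets with 3 distinct sets of values that disagreed: the brightest, which stood for the gene, changed by -0.05 in ATF4-deficient and 0.13 in wildtype neurons, and the other 4 by 0.97 to 0.98 and by 0.65 to 0.76. The second probe set of Mir669i, at a mean of 2.93, changed by -0.15 and 0.06.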
